A study of Mus musculus with 24 samples.

Results

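The genes described here are 36 genes of the endoplasmic reticulum (ER) chaperones and the unfolded protein response, out of 18193 genes measured in cortex of heterozygous mice that carry an eGFP-tagged ribosomal protein L10a transgene (aldh1l1 - eGFP-L10a). They were listed by name from knowledge of the pathway, and of the probe sets annotated to a gene's symbol alone, the brightest on average over the 24 arrays stood for it. All 36 had such a probe set, 84 in all, 10 genes with 1 probe set and 26 with 2 or more. Every animal carried the transgene, which the Aldh1l1 promoter drives in astrocytes, so that immunoprecipitated ribosomes give a bound fraction meant to hold astrocyte mRNA. The supernatant gives an unbound fraction, the RNA of all cells that was not pulled down.

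The 3 states were sleep, waking and sleep deprivation. Sleeping mice (6) were killed in the light phase, between 3 and 5 pm, at the end of a sleep bout of over 45 min and with at least 75% of the preceding 6 to 7 h asleep. Waking mice (6) were killed in the dark phase, between 3 and 5 am, at the end of a wake bout of over 1 h and with at least 70% of the preceding 6 to 7 h awake. Sleep-deprived mice (6) had been awake for most of the dark phase and were then kept awake for 4 h of the light phase with objects they did not know. The age of the mice is not given in the sources used here. Each of the 18 bound arrays held RNA of 1 animal, and each of the 6 unbound arrays a pool of 3 animals of a state (animals 1 to 3 or 4 to 6). Waking differed from sleep in time of day as well as in state, and these cannot be told apart. The same holds for waking against sleep deprivation. Sleep and sleep deprivation were both sampled in the light phase, but the hour at which sleep-deprived mice were killed is not given in the sources used here. A difference in hour between these states therefore remains possible.

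Secreted and membrane proteins fold in the ER with the help of the Hsp70 chaperone BiP, the lectin chaperones calnexin and calreticulin, and disulfide isomerases, and proteins that fail to fold are sent back to the cytosol for degradation. When unfolded proteins accumulate, the sensors IRE1, PERK and ATF6 start the unfolded protein response. IRE1 splices the mRNA of the transcription factor XBP1, cleaved ATF6 and spliced XBP1 switch on chaperone and degradation genes, and PERK slows translation and favours ATF4, which switches on CHOP and genes of amino acid supply. Wakefulness and sleep loss are known to raise BiP in rodent brain.

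The chaperone genes of this response are known for the ER stress element, CCAAT and CCACG set 9 bases apart, in their promoters. In the RefSeq promoter table (build GRCm38.p6), 31 of the 36 genes matched by symbol, and both strands of the 250 bases before each start were searched. The element stood in 9 of those 31 genes (29%), Calr, Canx, Creld2, Derl3, Dnajc3, Hsp90b1, Hspa5, Pdia6 and Syvn1, against 35 of 27025 genes of the table (0.13%). Manf, Derl1, Sil1, Atf6 and Hyou1 were not in the table. The stretches around the element are shown for 4 genes that rose in at least 1 comparison below, in gene orientation, with the element and its spacer in capitals.
Hspa5, chr2:34772010-34772058, plus strand: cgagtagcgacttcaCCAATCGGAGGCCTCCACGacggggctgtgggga
Creld2, chr15:88819505-88819553, plus strand: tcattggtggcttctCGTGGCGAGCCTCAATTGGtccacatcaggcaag
Dnajc3, chr14:118937812-118937860, plus strand: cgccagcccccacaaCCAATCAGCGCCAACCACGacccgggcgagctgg
Pdia6, chr12:17266476-17266524, plus strand: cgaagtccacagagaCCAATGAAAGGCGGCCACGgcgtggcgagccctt

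The element reads on the gene's own strand in Hspa5, Dnajc3 and Pdia6 and on the opposite strand in Creld2, and it lies 65 to 47 bases before the start in Hspa5, 105 to 87 in Dnajc3, 98 to 80 in Pdia6 and 126 to 108 in Creld2. Hsp90b1 carried 2 copies. No 2 motif matches in a gene overlapped. Related letters were rarer among the 36 genes. The core of ER stress element II, ATTGG and CCACG set 1 base apart, was found in Herpud1 alone (10 genes of the table, 0.037%), and the UPR element core TGACGTGG in Txndc5 alone (0.603% of the table's genes). The amino acid response core TGATGNAA, the kind of site ATF4 and its partners bind, was found in 4 genes (12.9% of those matched, against 3.91% of the table's genes), Asns, Chac1, Herpud1 and Txndc5. It is shown in capitals for Asns and Chac1, which make asparagine and break down glutathione, respectively, and which belong to the ATF4 targets described below.
Asns, chr6:7693210-7693247, minus strand: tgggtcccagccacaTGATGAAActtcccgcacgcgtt
Chac1, chr2:119351034-119351071, plus strand: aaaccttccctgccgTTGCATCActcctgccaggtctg

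All values are log2 RMA values as deposited. Differences are given in log2 units relative to the median difference of all 18193 genes in the same comparison. In bound RNA that median was 0.09 (waking minus sleep), 0.11 (sleep deprivation minus sleep) and 0.02 (sleep deprivation minus waking). In unbound RNA it was 0.30 and 0.18 against sleep, and between fractions 0.16 (bound minus unbound). A gene was called higher or lower where limma's adjusted p (Benjamini-Hochberg over all genes, on the differences as deposited) was under 0.05. The pull-down was checked on Aldh1l1, which stood at 10.90 ± 0.25 (SD, n = 18) in bound and 7.02 ± 0.17 (n = 6) in unbound RNA, 13.2-fold higher relative to the median gene. Of the marker lists, all 12 astrocyte genes were higher in bound RNA (median 3.06) and 11 of 12 neuronal genes lower. The bound fraction also held markers of other cells, with 7 of 8 meningeal and 4 of 8 choroid plexus and ependymal genes higher than in unbound RNA, beside 42.2% of all genes. Unbound RNA still held astrocyte markers. The mean level of their list was 9.34 to 9.91 over the unbound pools, where the median probe set stood at 5.64. Every pair of arrays of the same group shared exactly equal values (52 to 2248 probe sets over 48 pairs), and none of the 228 pairs of different groups did. Whether RMA was run separately for each group is not stated, and such a run and the state or fraction cannot be told apart.

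In bound RNA of waking mice, 5 of the 36 genes were higher than in sleep and none was lower. They were Xbp1, the transcription factor of the IRE1 branch, Creld2 and Manf, which code for secreted proteins induced by ER stress, and Sdf2l1 and Dnajc3, which code for co-chaperones of BiP. The share called higher, 13.9%, stood beside 9.07% of all genes, and the share called lower, 0%, beside 2.14%. Of the 36 genes, 27 lay above the median gene, with a median of 0.16, and 10 had an unadjusted p under 0.05, beside 23.1% of all genes. The differences of the 5 genes called ranged from 0.39 for Dnajc3 to 0.84 for Xbp1. With repeated quantile normalization the calls of Xbp1, Dnajc3 and Creld2 held, and with centring those of Xbp1 and Dnajc3.

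Xbp1 had values of 8.13, 8.39 and 8.88 (lowest, median and highest of 6) in bound RNA of sleeping mice, 8.80, 9.50 and 9.72 in waking and 8.47, 9.04 and 9.59 after sleep deprivation. Every waking animal was above the mean of the sleeping ones, and only the lowest waking animal reached into their range. The difference was 0.84 ± 0.19 (SE, 1.79-fold, adjusted p = 0.00352) for waking and 0.51 ± 0.19 (1.43-fold, adjusted p = 0.0351) for sleep deprivation. All 4 probe sets of Xbp1 were called higher in waking, at 0.64 to 0.88. After sleep deprivation 2 of the 4 were called higher, with all 4 at 0.36 to 0.54. The values are of total Xbp1 mRNA and do not tell its spliced form apart. Within animals 1 to 3 the waking difference was 0.85 and within animals 4 to 6 it was 0.81, the latter with 3 against 3 animals and adjusted p = 0.0695.

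Creld2 had values of 8.25, 8.64 and 9.10 in sleep, 8.73, 9.68 and 9.94 in waking and 8.97, 9.33 and 9.76 after sleep deprivation. All 6 waking and all 6 sleep-deprived animals exceeded the sleep mean, although the ranges met. The waking difference was 0.72 ± 0.21 (1.65-fold, adjusted p = 0.0161) and that of sleep deprivation 0.56 ± 0.21 (1.47-fold, adjusted p = 0.0376). The waking difference was 0.41 within animals 1 to 3, where it was not called (adjusted p = 0.242), and 1.02 within animals 4 to 6.

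Dnajc3, also known as p58IPK, a luminal partner of BiP, varied little between animals, with a pooled SD of 0.13 against a median of 0.32 over all genes. Its values were 9.94, 10.08 and 10.17 in sleep, 10.43, 10.52 and 10.76 in waking, and 10.25, 10.47 and 10.69 after sleep deprivation. No waking and no sleep-deprived animal fell into the range of the sleeping ones. It was the 1 gene of the 36 whose bound waking and sleep arrays were fully apart with waking higher, against 6.01% of all genes, and likewise for sleep deprivation, against 7.44%. The difference was 0.39 ± 0.10 in waking (1.31-fold, adjusted p = 0.00269) and 0.28 ± 0.10 after sleep deprivation (1.22-fold, adjusted p = 0.00907). With the mean of its probe sets in place of the brightest, the latter was 0.01 and was not called (adjusted p = 0.323). Of the 5 probe sets of Dnajc3, 1 was called higher in each comparison. They stood at 0.23 to 0.47 in waking and at -0.23 to 0.28 after sleep deprivation.

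Sdf2l1 had values of 7.52, 7.77 and 8.77 in sleep, 7.73, 8.79 and 9.79 in waking, and 8.17, 8.62 and 8.86 after sleep deprivation. Its waking difference, 0.82 ± 0.28 (1.76-fold, adjusted p = 0.0411), rested on overlapping groups, with 5 of 6 waking animals above the sleep mean. It was 1.31 within animals 1 to 3 and 0.31 within animals 4 to 6. After sleep deprivation the difference was 0.54 ± 0.28 and was not called (adjusted p = 0.134). The call was lost when any of 10 bound arrays was left out (sleep 1, 2, 3, 4 or 5, waking 1, 2, 3, 5 or 6), with differences of 0.61 to 0.85 and adjusted p of 0.0541 to 0.092.

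Manf, a secreted factor that supports neurons and is stored in the ER, had values of 9.89, 10.36 and 10.86 in sleep, 10.77, 10.98 and 11.31 in waking, and 10.36, 10.73 and 11.38 after sleep deprivation. All 6 waking animals stood above the sleep mean, and 4 of them above the highest sleeping one. The waking difference was 0.55 ± 0.19 (1.47-fold, adjusted p = 0.0331). That call was lost when any of 6 arrays was left out (sleep 1, 2 or 3, waking 4, 5 or 6), with differences of 0.46 to 0.54 and adjusted p of 0.0609 to 0.0773. After sleep deprivation the difference was 0.34 ± 0.19, with adjusted p = 0.131.

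**Figure D1:**
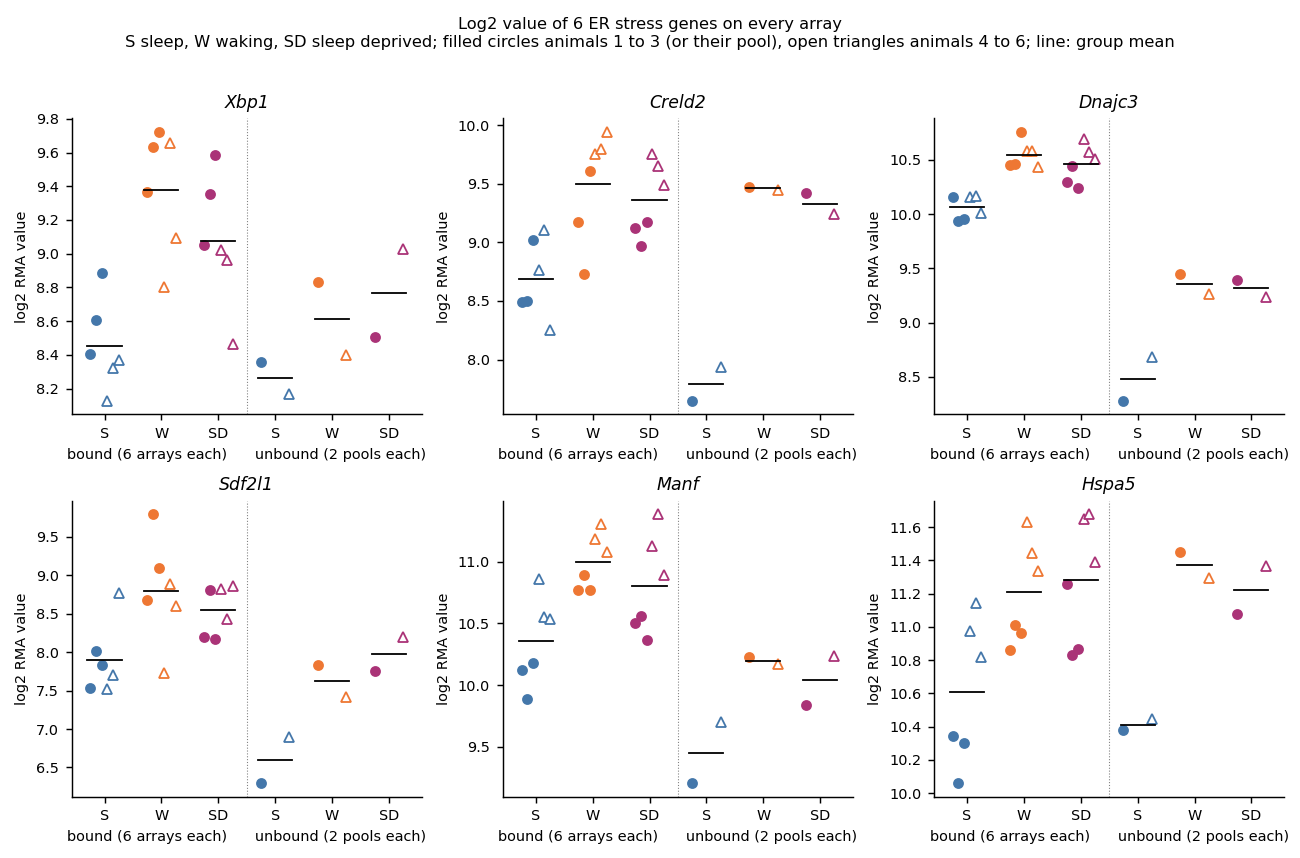
Log2 RMA value (vertical axis) of Xbp1, Creld2, Dnajc3, Sdf2l1, Manf and Hspa5 on each of the 24 arrays, by fraction and state (horizontal axis), with lines at group means and symbols for animals 1 to 3 (filled circles) and 4 to 6 (open triangles). In Dnajc3 the waking and sleep-deprived bound arrays all lie above the sleep arrays, while in Hspa5 and Manf the set of animals separates the bound arrays within each state.

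Hspa5 encodes BiP itself. Its bound values were 10.06, 10.58 and 11.14 in sleep, 10.86, 11.17 and 11.63 in waking, and 10.83, 11.32 and 11.68 after sleep deprivation, so that the groups overlapped while every waking and sleep-deprived animal exceeded the sleep mean. The difference was 0.56 ± 0.21 after sleep deprivation (1.47-fold, adjusted p = 0.0356) and was called. In waking it was 0.51 ± 0.21 and was not called (adjusted p = 0.0716), although the other 2 probe sets of Hspa5 were called higher, at 0.54 and 0.73. After sleep deprivation 2 of its 3 probe sets were called higher, with all 3 at 0.21 to 0.68. The sleep deprivation call was lost when any of 7 arrays was left out (sleep 1, 2 or 3, sleep deprived 1, 4, 5 or 6), with differences of 0.45 to 0.56 and adjusted p of 0.0578 to 0.084.

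Much of the spread of Hspa5 lay between the animal sets. Animals 4 to 6 exceeded animals 1 to 3 by 0.61 ± 0.08 over the 3 states. With the replicate number as a block, Hspa5 was called in both comparisons, at adjusted p = 0.000917 in waking and 0.000363 after sleep deprivation. With that block the count of genes called in waking was 9 rather than 5, the added ones being Hspa5, Calr, Eif2ak3 and Derl3, all higher. In sleep deprivation it was 10 rather than 5, the added ones being Pdia6, Dnajb11, Manf and Herpud1, which were higher, and Edem1, which was lower by 0.79 with adjusted p = 0.0156. The second probe sets of Edem1 and Pdia6 stood at 0.12 and -0.08 after sleep deprivation, so the probe sets of both genes disagreed. Blocking on the animal sets alone, a setting added once results were known, also gave 9 and 10 genes.

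After sleep deprivation, 4 genes were higher in bound RNA than in sleep, Hspa5, Creld2, Xbp1 and Dnajc3, and 1 was lower, Dnajc10. Shares of 11.1% higher and 2.78% lower stood beside 12.3% and 2.02% of all genes. With repeated quantile normalization or with centring, 2 genes were called lower, Dnajc10 among them, and none higher. The median of the 36 genes was 0.07, 23 lay above the median gene, and 12 had an unadjusted p under 0.05, beside 26.4% of all genes. Xbp1, Creld2 and Dnajc3 were called higher in both comparisons with sleep, which share the sleep arrays. The calls of Xbp1 and Creld2 after sleep deprivation were also lost when single arrays were left out, Xbp1 without any of 8 (sleep 1, 4, 5 or 6, sleep deprived 1, 2, 3 or 4, at 0.41 to 0.52 and adjusted p of 0.0506 to 0.0839) and Creld2 without any of 7 (sleep 1, 2, 4 or 6, sleep deprived 4, 5 or 6, at 0.47 to 0.57 and adjusted p of 0.0553 to 0.0887). Leaving out single arrays ended none of the waking calls of Xbp1, Creld2 and Dnajc3.

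Dnajc10, also known as ERdj5, is a disulfide reductase that works with BiP in degradation. Its bound values were 7.35, 7.87 and 8.85 in sleep, 6.64, 7.32 and 8.50 in waking, and 6.71, 7.05 and 7.25 after sleep deprivation. All sleep-deprived animals lay below all sleeping ones, which held for this gene alone of the 36 and for 1.02% of all genes. It fell by 1.05 ± 0.27 (2.07-fold lower, adjusted p = 0.0233). Of its 3 probe sets, 2 were called lower, and the third stood at -0.18 and was not called. The call was lost without sleep animal 4 (-0.88, adjusted p = 0.0549) or sleep-deprived animal 3 (-0.99, adjusted p = 0.0515). In waking the difference was -0.61 ± 0.27 (adjusted p = 0.255).

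**Figure D2:**
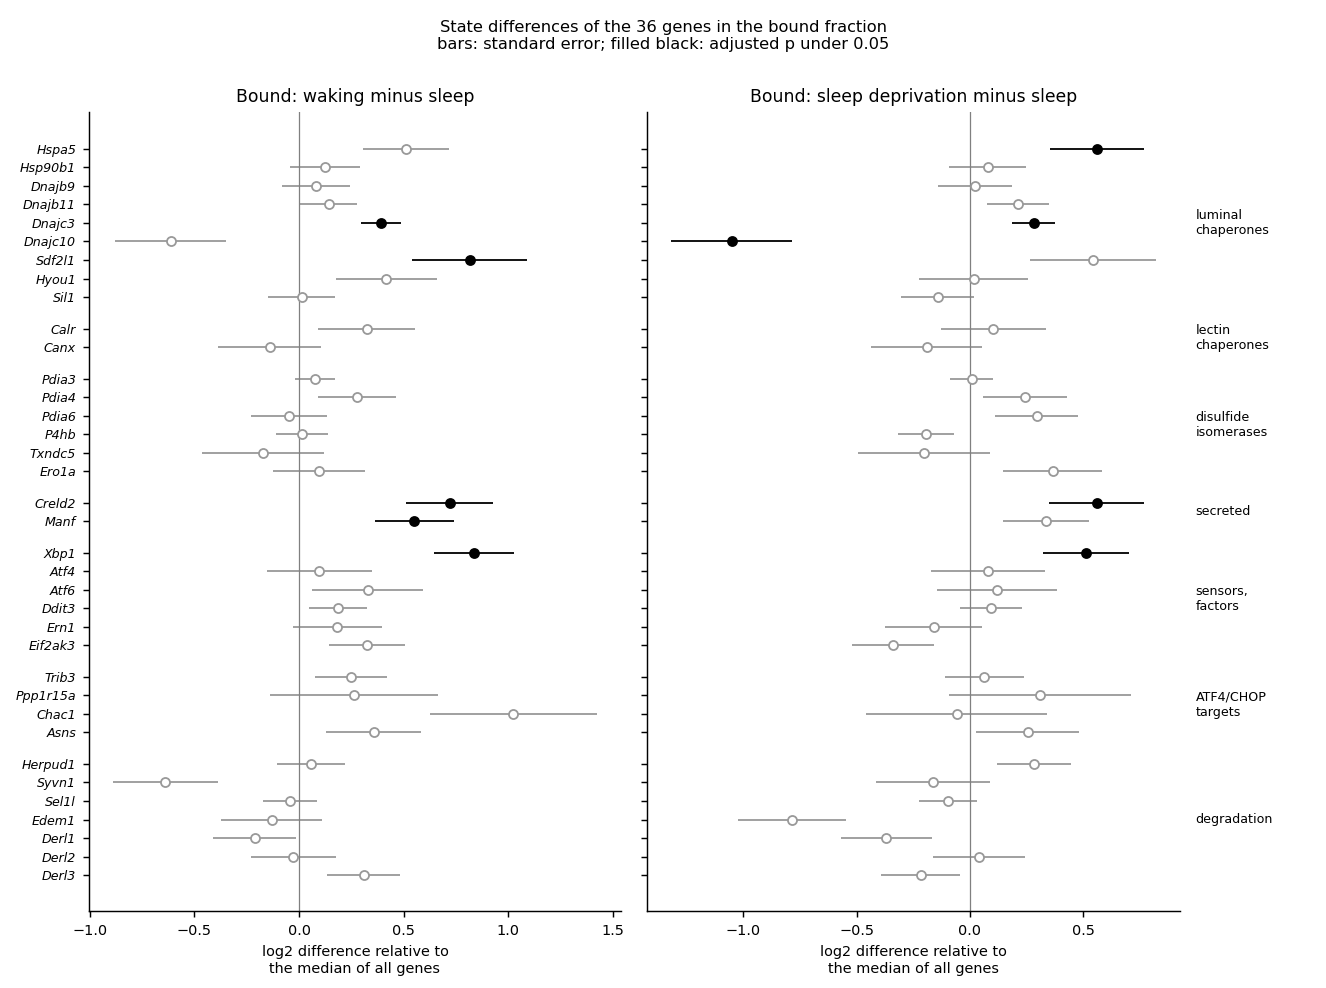
Log2 difference of waking (left) and sleep deprivation (right) from sleep in bound RNA for the 36 genes, relative to the median of all genes (horizontal axis, with standard errors), grouped by role, with filled symbols for an adjusted p under 0.05. Filled symbols stand among the luminal chaperones, the secreted proteins and Xbp1, and none among the isomerases, the ATF4 and CHOP targets or the degradation genes.

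By role, 2 of 9 luminal chaperones and co-chaperones were called in waking (median 0.14) and 3 of 9 after sleep deprivation, counting Dnajc10. Hsp90b1, the ER member of the Hsp90 family, stood at 0.12 and 0.08 in waking and sleep deprivation, Dnajb9 at 0.08 and 0.02, Dnajb11 at 0.14 and 0.21, Hyou1 at 0.42 and 0.02, and the nucleotide exchange factor Sil1 at 0.01 and -0.14, none of them called. The lectin chaperones were not called either without a block. Calreticulin (Calr) stood at 0.32 ± 0.23 and 0.10 ± 0.23, and calnexin (Canx) at -0.14 ± 0.25 and -0.19 ± 0.25.

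Without a block, none of the 6 disulfide isomerase and oxidase genes was called in bound RNA of waking or sleep-deprived mice. Their medians were 0.05 and 0.13. Pdia3 was among the least variable of the 36 genes (pooled SD 0.13) and stood at 0.08 ± 0.10 in waking and 0.01 ± 0.10 after sleep deprivation. The oxidase Ero1a, which passes electrons from the isomerases to oxygen, stood at 0.10 ± 0.22 and 0.36 ± 0.22. The differences of Pdia4, Pdia6, P4hb and Txndc5 lay between -0.20 and 0.29.

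Degradation genes were not called in either comparison with sleep without a block. Their median was -0.04 in waking and -0.16 after sleep deprivation, and 2 of 7 lay above the median gene in each. Edem1, a lectin that hands misfolded glycoproteins to degradation, stood at -0.13 ± 0.24 in waking and -0.79 ± 0.24 after sleep deprivation (adjusted p = 0.0697). Its second probe set stood at 0.07 and 0.12. The ubiquitin ligase gene Syvn1 stood at -0.64 ± 0.25 in waking (adjusted p = 0.194) and its partner Sel1l at -0.04 ± 0.13. Herpud1 stood at 0.06 and 0.28, Derl1 at -0.21 and -0.37, Derl2 at -0.03 and 0.04, and Derl3, which is dim, at 0.31 and -0.22.

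On the brightest probe set and without a block, no gene of the PERK branch was called in either comparison with sleep. Eif2ak3, which encodes PERK, stood at 0.32 ± 0.18 in waking (adjusted p = 0.164), and was called there with the replicate number as a block (adjusted p = 0.0231) and with the animal sets as a block (adjusted p = 0.0112). A dim probe set of Eif2ak3, with a mean of 3.05 over the 24 arrays, was called higher in waking at 1.28, and the third stood at 0.03 and was not called. Atf4, whose translation PERK favours, had bound values of 10.07, 10.79 and 11.34 in sleep, 10.33, 11.11 and 11.54 in waking, and 10.54, 10.87 and 11.47 after sleep deprivation, ranges that overlapped almost wholly. Its difference was 0.10 ± 0.25 in waking (95% confidence interval -0.43 to 0.63) and 0.08 ± 0.25 after sleep deprivation. A second probe set of Atf4, nearly as bright (mean 10.66, against 10.89 for the brightest), was called higher in waking at 0.37 ± 0.14 (adjusted p = 0.0373), so the probe sets of Atf4 disagreed. Ddit3, which encodes CHOP, a factor of prolonged stress, had values of 9.13, 9.49 and 9.64, then 9.45, 9.78 and 10.002, then 9.33, 9.74 and 9.98 in the same order. It stood at 0.19 ± 0.14 in waking (adjusted p = 0.24, interval -0.10 to 0.48) and 0.09 ± 0.14 after sleep deprivation.

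Of the ATF4 and CHOP targets, the glutathione-degrading enzyme gene Chac1 had the widest spread, with bound values of 4.53, 5.46 and 6.37 in sleep, 5.29, 6.72 and 7.40 in waking, and 3.98, 5.71 and 5.90 after sleep deprivation. The waking group reached highest and overlapped the others, and the difference of 1.02 ± 0.40 was not called (adjusted p = 0.0854). Within animals 1 to 3 it was 0.40 and within animals 4 to 6 it was 1.64. Chac1 lay at the median of all bound probe sets (5.79), and Trib3 and Derl3 below it.

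Ppp1r15a, the phosphatase subunit that reverses PERK's effect on translation, stood at 0.26 ± 0.40 in waking and 0.31 ± 0.40 after sleep deprivation, Trib3 at 0.25 ± 0.17 and 0.06 ± 0.17, and Asns at 0.36 ± 0.23 and 0.25 ± 0.23. All 4 targets lay above the median gene in waking. The bound values of Ppp1r15a ran from 7.11 to 9.17 in sleep, 7.63 to 9.42 in waking and 7.87 to 9.50 after sleep deprivation, and within each state animals 1 to 3 stood above animals 4 to 6.

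**Figure D3:**
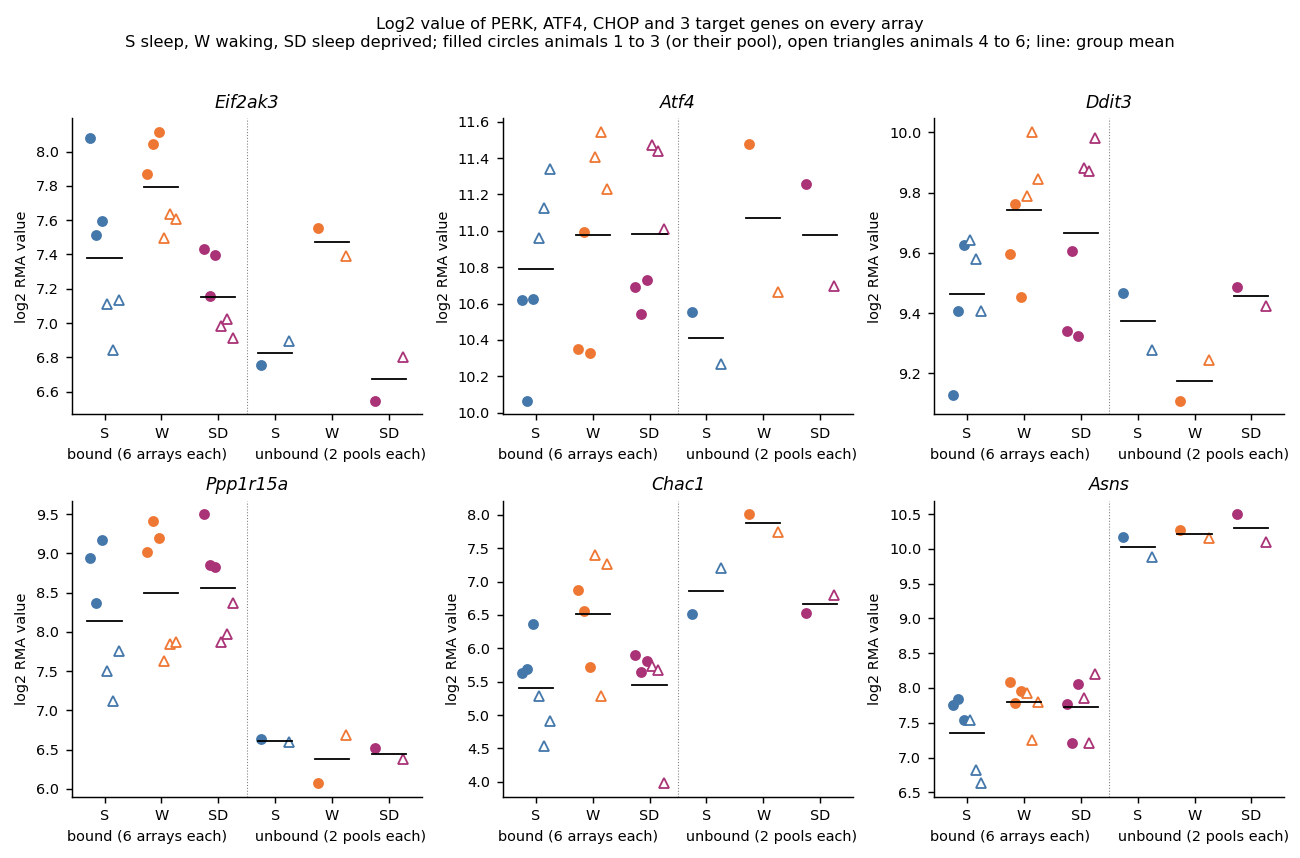
Log2 RMA value (vertical axis) of Eif2ak3, Atf4, Ddit3, Ppp1r15a, Chac1 and Asns on each of the 24 arrays by fraction and state (horizontal axis), with lines at group means. The bound states overlap for Atf4, Ddit3, Ppp1r15a and Asns, the animal sets separate Ppp1r15a, and Asns is higher in every unbound pool than in any bound array. The last held for 10.1% of all genes.

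Sleep deprivation and waking, which differed in phase as well as in state, were compared directly in bound RNA. Only Eif2ak3 was called. No gene was higher, beside 4.17% of all genes, and 1 of 36 was lower (2.78%), beside 2.67%. The median was -0.11, 28 of 36 lay below the median gene, and 4 had an unadjusted p under 0.05, beside 18.7% of all genes. Eif2ak3 had values of 7.50, 7.75 and 8.11 in waking, 6.92, 7.09 and 7.43 after sleep deprivation and 6.85, 7.32 and 8.08 in sleep. All sleep-deprived animals lay below all waking ones, with sleep spanning both. Such a separation held for 1 of the 36 genes and for 1.84% of all genes.

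The difference for Eif2ak3 was -0.67 ± 0.18 (1.59-fold lower, adjusted p = 0.0387). It was lost when any of 7 arrays was left out (waking 1, 2 or 3, sleep deprived 2, 4, 5 or 6), at -0.67 to -0.60 and adjusted p of 0.0641 to 0.0857. The other 2 probe sets, both dimmer, stood at -0.33 and -0.58 and were not called. With the replicate number as a block, 3 genes were called lower, Eif2ak3 together with Edem1 and Derl3. With the animal sets as a block, Eif2ak3 and Derl3 were called lower and Pdia6 higher. The second probe sets of Edem1 (0.05) and Pdia6 (-0.24) pointed the other way in this comparison. Shares of all genes called with either block are not given here. Dimmer probe sets of Dnajc10 (-1.04) and Ern1 (-0.47) were called lower in this comparison and 1 of Pdia4 (0.53) higher. The brightest probe sets of the other sensors were not called in any state comparison. Ern1, which encodes IRE1, stood at 0.18, -0.16 and -0.34 in waking against sleep, sleep deprivation against sleep and sleep deprivation against waking, and Atf6 at 0.33, 0.12 and -0.21. Of the 5 probe sets of Ern1, 2 dimmer ones were called higher in bound waking RNA, at 1.09 and 0.46. After sleep deprivation 1 was called higher, at 0.48, and 1 lower, at -0.45, so the probe sets of Ern1 disagreed too. None of the 3 probe sets of Atf6 was called in a state comparison.

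In unbound RNA, 5 genes were higher in waking than in sleep and none was lower, namely Creld2, Hspa5, Hsp90b1, Pdia6 and Dnajb11. The share of 13.9% stood beside 5.71% of all genes, and 0% lower beside 0.605%. After sleep deprivation 1 gene was higher, Creld2 (2.78% beside 1.42%), and none was lower, beside 0.451%. In each comparison 20 of the 36 had an unadjusted p under 0.05, beside 32.4% of all genes in waking and 25.3% after sleep deprivation. All genes together shifted up here, by a median of 0.30 in waking and 0.18 after sleep deprivation. The median of the 36 genes relative to that shift was 0.28 and 0.35, with 27 and 24 of them above the median gene.

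Creld2 had unbound values of 7.65 and 7.93 in sleep, 9.47 and 9.45 in waking, and 9.42 and 9.24 after sleep deprivation. The sleep pools lay far below the others. The difference was 1.37 ± 0.17 in waking (2.58-fold, adjusted p = 0.0308) and 1.36 ± 0.17 after sleep deprivation (2.57-fold, adjusted p = 0.0374). Creld2 was the 1 gene called higher in waking in both fractions.

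Hspa5 had unbound values of 10.38 and 10.44 in sleep, 11.45 and 11.29 in waking, and 11.08 and 11.36 after sleep deprivation, with a waking difference of 0.66 ± 0.17 (1.58-fold, adjusted p = 0.0398). Hsp90b1 had values of 11.11 and 11.13 in sleep and 11.86 and 11.95 in waking (0.48 ± 0.16, adjusted p = 0.0459). Pdia6 rose by 0.51 ± 0.15 (adjusted p = 0.0425) and Dnajb11, a co-chaperone that brings substrates to BiP, by 0.54 ± 0.17 (adjusted p = 0.0455). In these genes no waking pool fell into the range of the sleep pools, but with 2 pools a state 26 of the 36 genes had both waking pools above both sleep pools, as had 55.5% of all genes.

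Other probe sets of genes not called on the brightest one were called higher in unbound waking RNA for Calr, Derl1, Xbp1, Ern1 and Eif2ak3, and lower for Ddit3.

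The calls in unbound RNA rested on all 6 pools, and those of waking also on the scaling. With repeated quantile normalization or with centring, none of the 5 waking calls held. With each of the 6 unbound arrays left out in turn (the lone pool then assumed to vary like the others), none of the 36 genes was called. Adjusted p then ranged from 0.0687 to 0.147 for Creld2 in waking, from 0.0691 to 0.153 for Hspa5, from 0.073 to 0.163 for Hsp90b1, from 0.0731 to 0.159 for Pdia6, from 0.0735 to 0.166 for Dnajb11, and from 0.099 to 0.185 for Creld2 after sleep deprivation. None was called either with the pool number as a block. The shares of all genes called in these fits are not given here, so the loss of calls is not set beside a background.

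The state effects of the 2 fractions were compared with an interaction term, and no gene of the 36 was called. The backgrounds were 1.89% of all genes higher and 3.71% lower for waking, and 2.91% and 1.98% for sleep deprivation. At an unadjusted p under 0.05 there were 6 and 7 genes, beside 18.2% and 16.6% of all genes. Dnajc10 came closest, with a sleep deprivation effect 1.61 ± 0.50 lower in bound RNA (adjusted p = 0.0573). It was called in the replicate block setting, which in this comparison groups the arrays by animal set (limma's adjusted p = 0.0109). For Creld2 the waking effect differed by -0.64 ± 0.39 between fractions (adjusted p = 0.239), and for Xbp1 by 0.79 ± 0.37 (adjusted p = 0.457), so that a larger effect in either fraction was not shown.

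The calls were set beside the ER stress element as a description, and a link between them was not tested. The 5 genes not in the promoter table stayed out, among them Manf, called higher in bound waking RNA. In bound waking RNA, 2 of the 9 genes with the element were called higher, Creld2 and Dnajc3, with a median of 0.31. Of the 22 without it 2 were, Xbp1 and Sdf2l1, with a median of 0.12, beside 9.07% of all genes. After sleep deprivation it was 3 of 9 and 1 of 22, beside 12.3% of all genes, with medians of 0.10 and 0.05. In unbound waking RNA it was 4 of 9 (Creld2, Hspa5, Hsp90b1 and Pdia6) and 1 of 22 (Dnajb11), beside 5.71% of all genes, with medians of 0.48 and 0.22. In unbound RNA after sleep deprivation it was 1 of 9 and 0 of 22, beside 1.42% of all genes, and the medians were 0.37 and 0.36. The limits given above for the unbound calls apply here too.

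Between fractions, 20 of the 36 genes were higher in bound RNA (55.6%, beside 42.2% of all genes) and 9 were lower (25%, beside 27.2%). The median of 0.17 was close to that of all genes, which is 0 by construction. All bound arrays lay above all unbound pools in 5 of the 36 genes, beside 17.2% of all genes. They lay below all unbound pools in 2, Sel1l and Asns, beside 10.1% of all genes. In 5 of the 29 genes called, Pdia4, Dnajb9, Dnajb11, Xbp1 and Ddit3, the 95% interval of the difference relative to the median gene spanned 0. Each of these 5 calls was also lost without 1 or more single unbound pools, Pdia4 without sleep pool 1, Dnajb9 without waking pool 2, Ddit3 without sleep pool 2 or waking pool 1, and Dnajb11 and Xbp1 without sleep pool 2, waking pool 2 or sleep deprivation pool 1 (adjusted p of 0.0543 to 0.0914). In these RNA pools more astrocytes, more RNA per astrocyte and more of that RNA on ribosomes cannot be told apart.

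Of the 7 ERAD genes, 5 were higher in bound RNA, beside 42.2% of all genes, and Sel1l was lower. The isomerases and oxidase had 4 of 6 higher and the lectin chaperones 0 of 2. Of the further lists given below, the translocon had 12 of 18 higher, N-glycosylation 9 of 15 and folding enzymes 11 of 17. Derl2, a membrane protein of the retrotranslocation machinery, was 1.26 ± 0.15 higher (2.40-fold, adjusted p = 4.04e-08), Edem1 0.97 ± 0.19 higher, Derl1 0.86 ± 0.16 and Herpud1 0.68 ± 0.13. The second probe sets of Edem1 (-0.11) and Herpud1 (0.16) were not called. Sel1l, the adaptor of the Syvn1 ligase, was 1.25 ± 0.10 lower (adjusted p = 3.52e-09), and its bound values, from 9.30 to 10.01, all lay below the lowest unbound pool at 10.47. With means of probe sets neither Derl2 (0.34, adjusted p = 0.0723) nor Sel1l (-0.34, adjusted p = 0.0811) was called. Among the co-chaperones of BiP, Sil1 was 1.22 ± 0.13 higher, Dnajc3 1.14 ± 0.08 higher and Sdf2l1 0.86 ± 0.22 higher, while Dnajc10 was 1.47 ± 0.20 lower. Hspa5 stood at -0.13 ± 0.16 and was not called.

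The lectin chaperones were both lower in bound RNA, Canx by 0.77 ± 0.19 and Calr by 0.58 ± 0.17, as was Hsp90b1, by 0.47 ± 0.13 (adjusted p = 0.0336). The call of Calr was lost without any of the 6 unbound pools (adjusted p of 0.0634 to 0.0758) and that of Hsp90b1 without any of 5, all but sleep deprivation pool 2 (adjusted p of 0.0536 to 0.0966). In animals 4 to 6 alone none of the 3 was called, at -0.34 for Canx, -0.25 for Calr and -0.22 for Hsp90b1. Of the isomerases, Txndc5 was 1.26 ± 0.23, P4hb 0.69 ± 0.10 and Pdia3 0.32 ± 0.07 higher, and the oxidase Ero1a was 1.24 ± 0.17 lower. A second, dimmer probe set of Pdia3 was called lower, at -1.54, and so was that of Ddit3, at -1.53.

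The ATF4 and CHOP targets spread furthest. Ppp1r15a was 1.76 ± 0.31 higher in bound RNA (3.39-fold, adjusted p = 1.01e-05). Its lowest bound array, at 7.11, was above the highest unbound pool, at 6.68, a separation seen in 17.2% of all genes. Asns was 2.72 ± 0.18 lower (6.57-fold, adjusted p = 2.91e-11), with bound values from 6.63 to 8.20 and unbound ones from 9.88 to 10.50, and both its probe sets were called lower. Chac1 was 2.83-fold lower and Trib3 0.36 ± 0.14 higher. Of the sensors, Atf6 was 1.56 ± 0.20 lower on the chosen probe set, and all 3 of its probe sets were called lower.

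**Figure D4:**
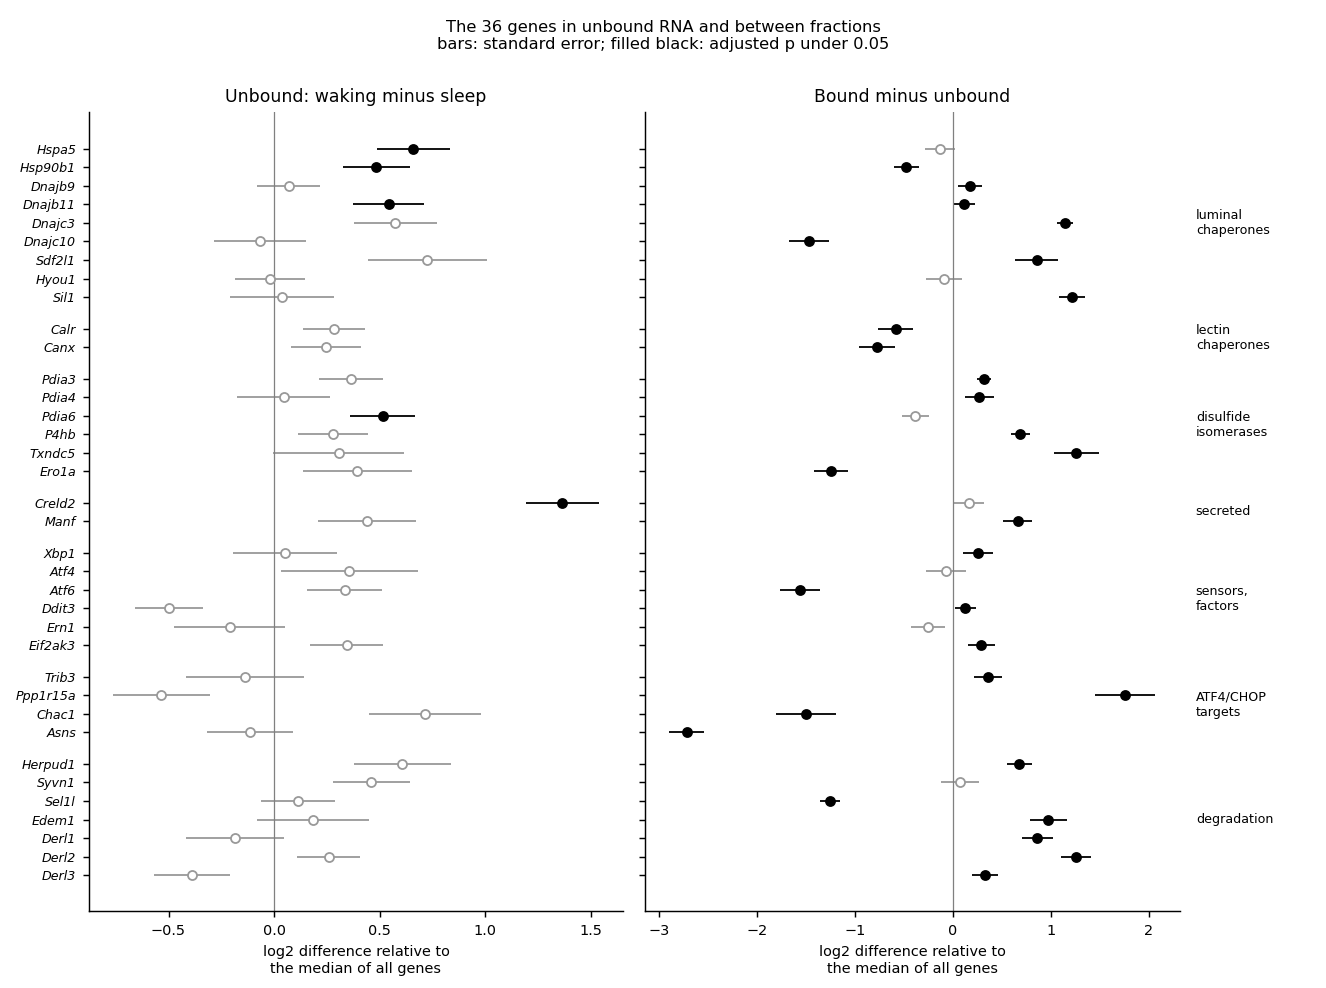
Log2 difference of waking from sleep in unbound RNA (left) and of bound from unbound RNA (right) for the 36 genes, relative to the median of all genes (horizontal axis, with standard errors), with filled symbols for an adjusted p under 0.05. On the right, Ppp1r15a at 1.76 and Asns at -2.72 mark the ends, and most degradation genes stand to the right of 0.

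Within states, the bound arrays of animals 4 to 6 differed from those of animals 1 to 3 in 23 of the 36 genes, 14 higher (beside 22.9% of all genes) and 9 lower (beside 21%). This comparison was added after the data had been seen. Canx was 0.78 ± 0.07 higher in animals 4 to 6, Atf4 0.72 ± 0.11, Calr 0.69 ± 0.09, Hspa5 0.61 ± 0.08, Manf 0.53 ± 0.08 and Hsp90b1 0.46 ± 0.08. Ppp1r15a was 1.27 ± 0.14 lower, Txndc5 0.83 ± 0.14, Hyou1 0.56 ± 0.15, Eif2ak3 0.50 ± 0.09 and Xbp1 0.43 ± 0.12 lower. In size this difference exceeded every bound state difference for Canx, Atf4, Calr, Hspa5, Hsp90b1, Ppp1r15a, Txndc5 and Hyou1. It did not for Manf, Eif2ak3 and Xbp1. Dnajc3, at 0.10 ± 0.07, was not called. What set the animals apart is not given in the sources used here.

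**Figure D5:**
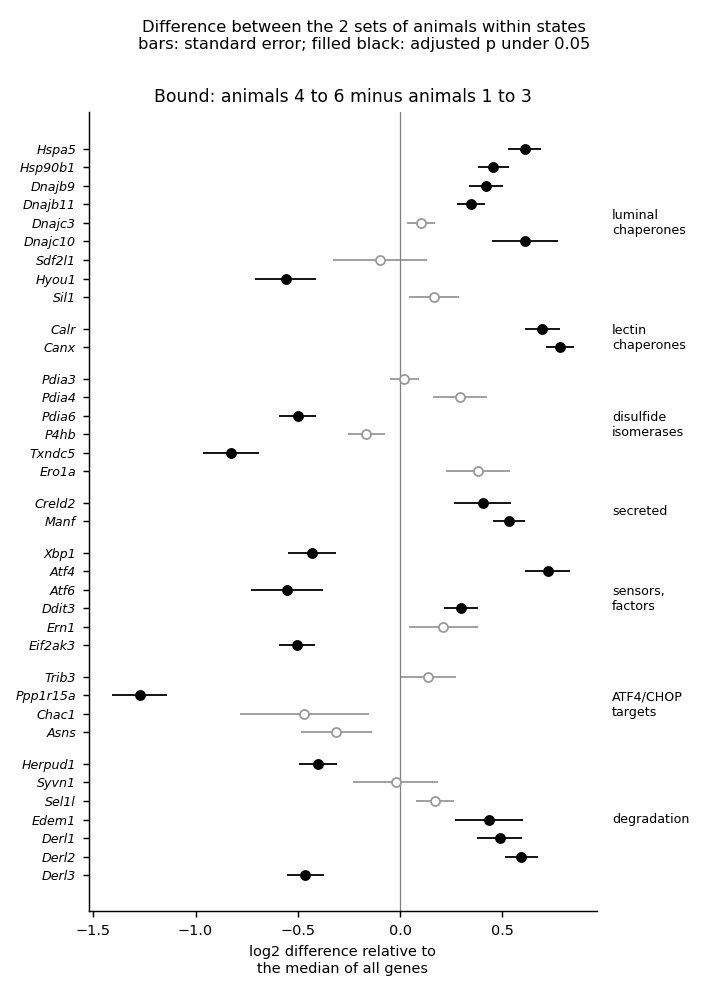
Log2 difference between bound arrays of animals 4 to 6 and animals 1 to 3 within states for the 36 genes, relative to the median of all genes (horizontal axis, with standard errors), with filled symbols for an adjusted p under 0.05. Canx at 0.78 and Ppp1r15a at -1.27 mark the ends.

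Other genes of the same pathways were taken from 6 lists with 112 measured genes of 118. In bound waking RNA 4 were called higher and none lower, beside 9.07% and 2.14% of all genes, with a median of 0.01. They were Edem3 (0.72 ± 0.24) and Ube2j2 (0.53 ± 0.11) of ERAD, Ern2 (0.33 ± 0.12), a relative of IRE1, and the stress-induced inhibitor of growth signalling Ddit4 (0.22 ± 0.09). No gene of the translocon, N-glycosylation and further folding enzyme lists was called in that comparison (0 of 18, 0 of 15 and 0 of 17).

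After sleep deprivation 7 of the 112 were called higher and none lower, beside 12.3% and 2.02% of all genes, with a median of -0.01. The 5 from the integrated stress response targets were Mthfd2 of mitochondrial folate metabolism (0.95 ± 0.27), the alanine transaminase gene Gpt2 (0.52 ± 0.18), Sesn2 (0.51 ± 0.17), Cth of cysteine synthesis (0.41 ± 0.16) and Ddit4 (0.21 ± 0.09). The others were the transcription factor genes Cebpb (0.72 ± 0.25) and Nfe2l2 (0.30 ± 0.11). Between sleep deprivation and waking, where 4.17% of all genes were higher and 2.67% lower, the amino acid transporter gene Slc7a5 was higher (0.46 ± 0.14) and the thioredoxin-like Txndc12 lower (-0.54 ± 0.12).

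In unbound waking RNA 4 of the 112 were higher (beside 5.71% of all genes), Eif2ak4 (1.09 ± 0.21), the translocon channel gene Sec61a1 (0.90 ± 0.18), Creb3 (0.56 ± 0.16) and Ganab (0.52 ± 0.16), and Atf3 was lower (-1.40 ± 0.24). None was called in unbound RNA after sleep deprivation. Between fractions 65 were higher in bound RNA and 18 lower, beside 42.2% and 27.2% of all genes, among them Cth (4.76), Nfe2l2 (3.55) and Phgdh (3.34) at the upper end and Vldlr (-2.21) and Uggt1 (-1.89) at the lower.

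Markers of other cells moved in part with the states. Of the 9 endothelial genes measured, 8 lay above the median gene in bound waking RNA and 2 were called higher, and their mean level was 4.36 to 4.76 over the sleep arrays, 4.71 to 5.24 over the waking and 4.45 to 5.09 over the sleep-deprived arrays, below the median probe set throughout. The choroid plexus and ependymal genes spanned 6.46 to 8.89 in sleep, 5.71 to 8.66 in waking and 5.82 to 8.62 after sleep deprivation, with medians of -0.91 and -1.10 against sleep and none of 8 called. In waking the microglial and oligodendrocyte lists each had 2 of 9 genes higher, the astrocyte list 2 of 12, the red blood cell list 1 of 2, and the pericyte and smooth muscle list 2 of 8 higher and 1 lower. Over all marker lists 11 of 83 genes were called higher in waking and 1 lower, beside 9.07% and 2.14% of all genes. After sleep deprivation 5 were called higher and 2 lower, beside 12.3% and 2.02% of all genes. Both red blood cell genes were among the 5 higher after sleep deprivation, with a median of 0.62. Their mean level was 3.42 to 3.83 over the sleep arrays, 3.86 to 4.33 over the waking and 4.17 to 4.63 over the sleep-deprived arrays. It lay below the median probe set throughout. The astrocyte list stood at 12.34 to 12.51 in sleep, 12.41 to 12.64 in waking and 12.46 to 12.61 after sleep deprivation. The part of these cells in the results above was not tested.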

How the data were processed

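RNA of the bound and unbound fractions was measured on 24 one-colour Affymetrix arrays of 45101 probe sets. Per the submitters' processing notes, the authors deposited log2 values from RMA, which corrects background, normalizes quantiles and summarises each probe set. The version, and which arrays were run together, are not given in the sources used here. The array annotation pairs 34945 probe sets with 1 symbol, 932 with several and 9160 with none. The last 2 kinds and 64 control probe sets were left out, and 18193 genes were tested.

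Groups were compared with limma 3.58.1 under R 4.3.3 (lmFit, eBayes), on the 18 bound, the 6 unbound or all 24 arrays in 6 groups, with an adjusted p under 0.05 as threshold. Standard errors are limma's. Where single probe sets are called, p-values were adjusted over all probe sets with 1 symbol. The script was tested on simulated data. Figures were drawn with matplotlib 3.10.9. P-values measure the spread between single animals in bound RNA and between pools in unbound RNA, and the number of arrays limits precision. Without a block, the spread in bound RNA includes the difference between animals 1 to 3 and 4 to 6. Comparisons of fractions, interactions included, used a shared estimate of spread for single animals and pools. They treated the pools as independent of the bound arrays, although both came from the same animals.

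All 36 genes could be named, as could genes called in the 6 pathway lists, the largest differences between fractions in those lists, and marker genes by list. The genes, lists and tests were chosen with earlier results of these data known. Values per array are shown for genes called in a bound state comparison and for Hspa5, Ddit3, Atf4 and Chac1, and after values were seen for some others.

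The fits reported had no block. Residuals of same-numbered bound arrays correlated at 0.268 to 0.530 over 18 pairs, so the numbers pair them by the rule used (every r over 0.1). The correlation was -0.287 to 0.127 once the difference between animals 1 to 3 and 4 to 6 was removed, so the pairing comes from these sets. In unbound pools it was 0.001 to 0.029. Alternatives were the replicate number as a block, dim genes left out, means of probe sets, repeated quantile normalization, centring, array weights, the spread from all 24 arrays, each set of animals alone and each array left out. The block of animal sets was added after the data had been seen.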

Additional observations from a re-analysis of the deposited data

Results flagged for a closer look

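Each of the 36 genes was looked at in the 3 bound groups of 6 arrays (108 groups), and in 4 of them the lowest array stood apart from the rest by more than Dixon's 95% limit (0.625 of the range). Chance alone flags about 5% of groups. In sleep-deprived animal 6, Chac1 was at 3.98, while the other 5 lay between 5.64 and 5.90. In waking animal 5, Syvn1 was at 6.40 against 7.45 to 8.07 in the others, and Asns at 7.25 against 7.78 to 8.08. In sleep animal 2, Edem1 was at 7.08 against 7.96 to 8.42.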

How the results depend on the processing

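Counts of the 36 genes called moved with the processing, and the cause was not tested. The shares of all genes called under the alternatives are not given here. For bound waking (5) they were 9 with the replicate block or the block of animal sets, 2 without dim genes, 8 with means of probe sets, 3 with repeated quantile normalization, 2 with centring, 2 in animals 4 to 6 alone, and 3 to 6 with single arrays left out. For bound sleep deprivation (5) they were 10 with either block, 1 without dim genes, 2 with repeated quantile normalization or centring, 3 in either animal set, and 2 to 5 with single arrays left out. For sleep deprivation against waking (1) they were 3 with either block, 2 with means of probe sets, 0 without dim genes or within either set, and 0 to 2 with single arrays left out. For unbound waking (5) they were 0 with the block, quantile normalization, centring or any array left out, 1 without dim genes and 9 with means of probe sets. For unbound sleep deprivation (1) they were 0 with the block, without dim genes or with any array left out, and 4 with the spread from all 24 arrays. For the interactions (0) they were 2 (means of probe sets) and 1 (array weights) for waking, and 1 (block), 1 (means), 2 (array weights) and 0 to 1 (arrays left out) for sleep deprivation. Bound against unbound (29) kept within 24 to 30. With means of probe sets, Pdia3 and Ddit3 turned to -0.57 (adjusted p = 0.00106) and -0.66 (adjusted p = 3.39e-07) in that comparison. The waking calls of Xbp1 and Dnajc3 were lost in 1 of 28 alternatives each (animals 4 to 6 alone), and that of Creld2 in 3 of 28. The replicate block changed no other call than those given in the report and Creld2 between fractions. Log2 values carry no counts, and signal near the background limits Derl3, Trib3 and Chac1.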
